A study of Mus musculus with 21 samples.

Results

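The period genes *Per1*, *Per2* and *Per3* and the cryptochrome genes *Cry1* and *Cry2* encode the repressors of the circadian clock. Their RNA was examined in plasma cells of the small intestine that carry IgA (IgA+ PCs). The 5 genes were taken by gene symbol from a count table of 53801 genes, each symbol had 1 row, and all 5 were among the 20256 genes tested. IgA+ PCs (CD138+ IgA+) were sort-purified from the small intestinal lamina propria of 21 individual mice of the C57BL/6 background, and each mouse gave 1 RNA-seq library. Control mice (Mb1Cre-/- x Arntlfl/fl) gave 6 libraries at ZT0 and 6 at ZT12, and knockout mice (Mb1Cre+/- x Arntlfl/fl) gave 4 at ZT0 and 5 at ZT12. Zeitgeber time (ZT) counts hours from lights on, so that ZT0 is the start of the light phase and ZT12 the start of the dark phase. All mice carried the floxed *Arntl* alleles, and only knockout mice carried Cre. That Cre stands under the *Mb1* (*Cd79a*) locus, which is active from early B cells on, so *Arntl*, the gene for Bmal1, is deleted across the B cell lineage and long before a cell becomes a plasma cell. The effect of the deletion and that of the Cre insertion in *Cd79a* cannot be told apart in these groups. Genotypes follow the sample titles, since in 8 of the 9 knockout samples the genotype field gives the control genotype.

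In the circadian clock, a dimer of Bmal1 and CLOCK binds E-box sequences and activates the period and cryptochrome genes. Their protein products form complexes that return to the nucleus and repress the same dimer, and casein kinases and ubiquitin ligases set how long they persist. A further loop runs through REV-ERB receptors (*Nr1d1*, *Nr1d2*), which repress *Arntl* and also *Cry1*. *Per1* and *Per2* respond in addition to signals from outside the cell, through CREB and the glucocorticoid receptor. *Per3* is largely dispensable for rhythm generation in mice. *Cry1* and *Cry2* are flavoprotein relatives of photolyases, and either can carry part of the repressor function.

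Libraries held between 14471018 and 22785835 counts on genes, of which 51.5% to 53.4% fell on immunoglobulin genes in control mice at ZT0, 53.4% to 63.6% in control mice at ZT12, 53.6% to 59.4% in knockout mice at ZT0 and 53.7% to 55.7% in knockout mice at ZT12. This share was thus higher in every knockout than in every control mouse at ZT0. Levels are TMM-normalized CPM, that is, counts scaled to the library's effective total. A gene was called where the Benjamini-Hochberg adjusted p over all 20256 genes, from edgeR's quasi-likelihood test on the 4 groups together, was under 0.05. Plasma cell markers were abundant in every library, while the markers of other B cells summed to 15.2 to 33.7 CPM, those of T cells to 12.5 to 29.8 CPM and those of myeloid cells to 6.02 to 68.9 CPM. The 7 stromal and endothelial markers summed to 41.3 to 45.9 CPM in control mice at ZT0 and to 23.7 to 38.9 CPM at ZT12, without overlap, and to 33.5 to 47.1 CPM and 26.4 to 42.7 CPM in knockout mice. Epithelial markers, 9 genes of which 0 were listed at 0 in all mice, summed to 54.5 to 196 CPM in 19 libraries, to 395 CPM in knockout ZT12 replicate 5 and to 666 CPM in control ZT12 replicate 5. *Arntl*, counted over its whole length, lay at 6.83 to 8.36 CPM in control mice at ZT0, 4.00 to 5.56 CPM in control mice at ZT12, 4.08 to 6.47 CPM in knockout mice at ZT0 and 3.11 to 4.93 CPM in knockout mice at ZT12. Its level therefore does not sort the genotypes at ZT12. *Cd79a*, which carries the Cre, was between 163 and 276 CPM in knockout mice and between 386 and 586 CPM in control mice.

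On GRCm38, *Per1* (ENSMUSG00000020893) lies on the plus strand at chr11:69095217-69109960. *Per2* (ENSMUSG00000055866) lies on the minus strand at chr1:91415982-91459324, *Per3* (ENSMUSG00000028957) on the minus strand at chr4:151003652-151044665, *Cry1* (ENSMUSG00000020038) on the minus strand at chr10:85131700-85185064 and *Cry2* (ENSMUSG00000068742) on the minus strand at chr2:92403646-92434043. The 250 bases before each annotated RefSeq start (GRCm38.p6) are shown here, because the deleted gene encodes a factor that binds E-boxes. Capitals mark matches to the E-box CACGTG, the E-prime-box CACGTT, which reads AACGTG on the other strand, and the D-box TTATGNAA, the last being bound by Dbp, Tef and Hlf. The promoter table matched 4 of the 5 genes, with 2 starts for *Per1* and no entry for *Per2*. Both *Per1* starts lie within the span of the gene given here. Bases just after the start were found in a GENCODE M21 transcript of the gene for every start except the second of *Per1*.

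Per1, start 1 (chr11:69098699-69098948, plus strand): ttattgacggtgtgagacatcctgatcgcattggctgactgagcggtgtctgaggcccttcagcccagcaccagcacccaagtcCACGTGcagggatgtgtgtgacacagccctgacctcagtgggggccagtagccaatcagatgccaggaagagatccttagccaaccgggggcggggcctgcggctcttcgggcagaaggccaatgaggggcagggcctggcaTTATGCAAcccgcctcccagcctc

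Per1, start 2 (chr11:69099902-69100151, plus strand): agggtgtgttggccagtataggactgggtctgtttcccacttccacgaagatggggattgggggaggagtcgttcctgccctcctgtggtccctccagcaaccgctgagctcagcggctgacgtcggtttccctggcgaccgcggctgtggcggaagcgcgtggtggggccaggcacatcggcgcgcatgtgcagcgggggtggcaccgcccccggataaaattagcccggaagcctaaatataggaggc

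Per3 (chr4:151044666-151044915, minus strand): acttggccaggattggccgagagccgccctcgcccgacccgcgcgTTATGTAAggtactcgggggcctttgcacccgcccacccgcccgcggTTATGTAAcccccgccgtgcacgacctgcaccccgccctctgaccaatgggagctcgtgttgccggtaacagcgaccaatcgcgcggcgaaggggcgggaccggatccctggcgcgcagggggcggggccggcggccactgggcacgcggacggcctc

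Cry1 (chr10:85185055-85185304, minus strand): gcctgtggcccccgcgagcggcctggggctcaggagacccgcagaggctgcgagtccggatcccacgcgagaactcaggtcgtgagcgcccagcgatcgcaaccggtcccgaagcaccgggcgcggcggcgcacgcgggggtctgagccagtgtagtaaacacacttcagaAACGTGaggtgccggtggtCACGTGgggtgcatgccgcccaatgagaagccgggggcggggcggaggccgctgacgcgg

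Cry2 (chr2:92434070-92434319, minus strand): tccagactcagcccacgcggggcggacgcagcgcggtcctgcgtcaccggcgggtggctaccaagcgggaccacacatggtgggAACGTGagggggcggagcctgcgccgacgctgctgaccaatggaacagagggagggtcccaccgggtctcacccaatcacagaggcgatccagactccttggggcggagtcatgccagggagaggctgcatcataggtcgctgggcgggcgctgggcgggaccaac

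The E-box stood 166 to 161 bases before the first *Per1* start and 60 to 55 bases before the *Cry1* start. An E-prime-box on the reverse strand stood 79 to 74 bases before the *Cry1* start and 166 to 161 bases before the *Cry2* start. D-boxes stood 24 to 17 bases before the first *Per1* start and at 205 to 198 and 158 to 151 bases before the *Per3* start. Neither the cAMP response element TGACGTCA nor the REV-ERB and ROR core TAGGTCA was found in these 5 windows, and the second *Per1* start had no match to any of the 5 motifs. Motifs were searched on both strands in windows of 300 bases, and none of the matches overlapped another. Among 32851 promoters of the same length, 7.15% held the E-box, 4.68% the E-prime-box, 3.38% the D-box, 1.79% the cAMP response element and 2.61% the REV-ERB and ROR core. These are matches of letters and were not tested as binding sites.

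**Figure D1:**
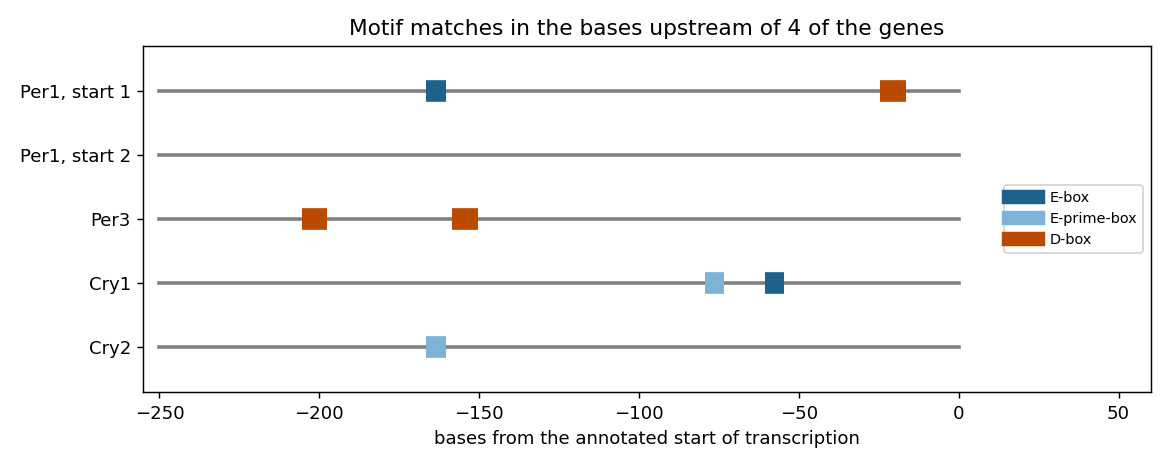
Motif matches before the annotated starts of *Per1* (2 starts), *Per3*, *Cry1* and *Cry2*. The horizontal axis gives bases from the start, grey lines are the 250 bases shown and coloured blocks are matches; *Cry1* has its E-box and E-prime-box within 79 bases of the start, and *Per3* has only D-boxes.

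*Per1* was the most abundant of the repressor RNAs for its length. Per kb of gene, the order was *Per1* with a mean level over the 21 mice of 31.5 CPM per kb, *Cry1* with 6.05, *Cry2* with 3.40, *Per2* with 2.04 and *Per3* with 1.70 CPM per kb. *Per1* was above *Cry1*, and *Cry1* above *Cry2*, in 21 of 21 mice on that scale, and *Cry2* was above *Per2* in 20 of 21. *Per2* was above *Per3* in 13 of 21 mice, and their order differed by group. It was above *Per3* in every knockout mouse and below it in every control mouse at ZT0. In control mice the means of *Per2* and *Per3* were 1.292 and 1.825 CPM per kb at ZT0, and 2.265 and 2.009 at ZT12. In knockout mice they were 2.297 and 1.536 at ZT0, and 2.461 and 1.308 at ZT12. The fewest counts of *Per2* in a mouse were 85 (3.73 CPM of all counts, 95% Wilson limits 3.02 and 4.61) and the fewest of *Cry1* were 206 (14.2 CPM of all counts, 95% Wilson limits 12.4 and 16.3), and these limits cover counting error only. *Per3* shares its locus with *Camta1*, with 1238 counts over all mice against 5692 for *Per3*, and *Cry2* overlaps the antisense gene *D930015M05Rik*, with 168 counts against 7494. Since the strand setting of the counting is not given, reads in these overlaps are uncertain. Of the stretches of 50 bases in its transcripts, *Cry2* shared 3.29% with other genes and *Per3* 0.217%, and the other 3 genes shared 0.

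**Figure D2:**
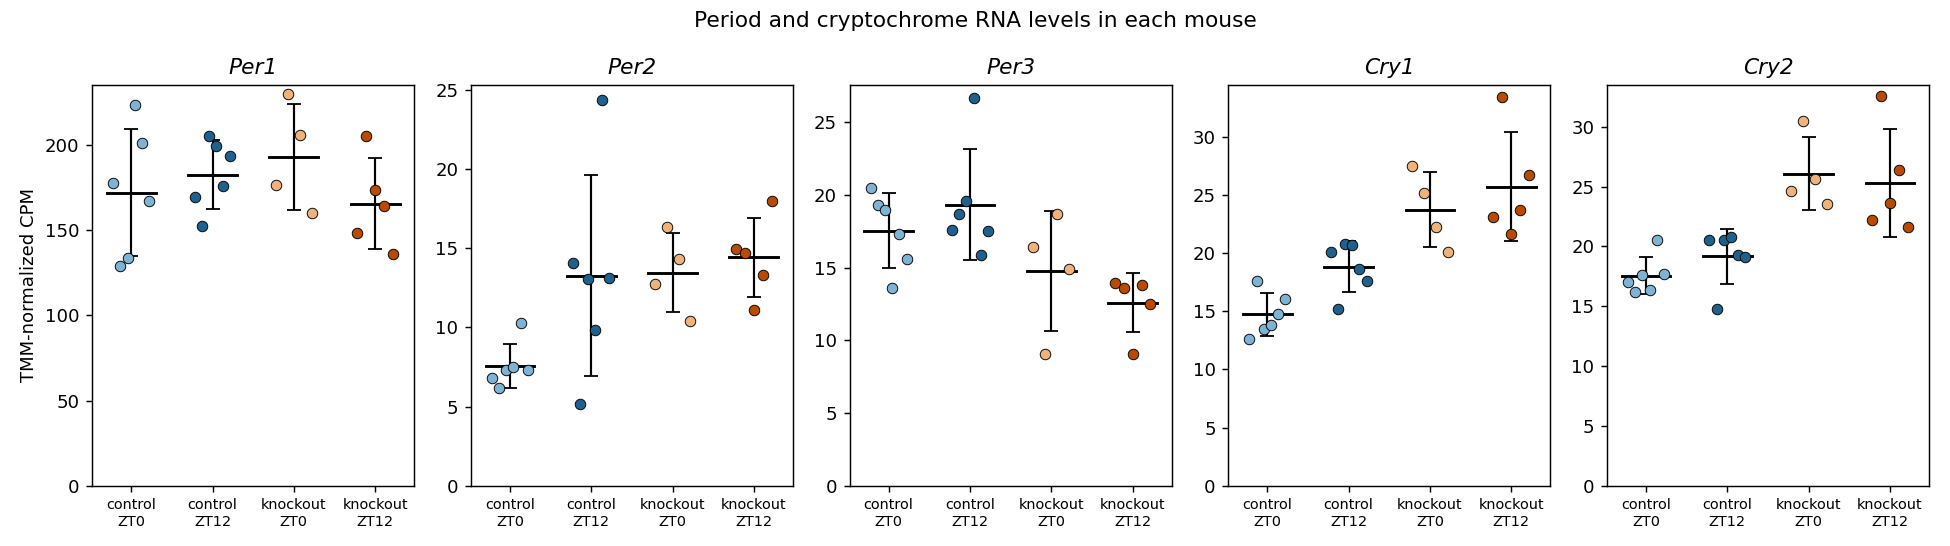
TMM-normalized CPM of each gene in each mouse, by group (6, 6, 4 and 5 mice), with each panel on its own axis from 0. Points are mice, wide lines the group mean and bars the SD; *Cry1* and *Cry2* of knockout mice lie above control mice of the same time, *Per2* is low in control mice at ZT0, and *Per3* is low in knockout mice at ZT12.

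The cryptochrome RNAs set the genotypes apart at both times of day, with every knockout mouse above every control mouse of the same time for *Cry1* and for *Cry2*. *Cry1* is the stronger repressor of the Bmal1 and CLOCK dimer. In control mice it lay between 12.6 and 17.6 CPM at ZT0, with a median of 14.3 CPM, and between 15.2 and 20.8 CPM at ZT12, with a median of 19.4 CPM. The 4 knockout mice at ZT0 had 27.5, 25.1, 22.2 and 20.1 CPM, and the 5 at ZT12 had 23.1, 33.4, 21.6, 23.7 and 26.7 CPM. Across times there was a small overlap, since the lowest knockout mouse at ZT0 (20.1 CPM) was below the highest control mouse at ZT12 (20.8 CPM). The group means were 14.7 ± 1.83 CPM (SD, n = 6) in control and 23.7 ± 3.25 CPM (SD, n = 4) in knockout mice at ZT0. They were 18.8 ± 2.18 CPM (SD, n = 6) and 25.7 ± 4.69 CPM (SD, n = 5) at ZT12. The log2 fold change was 0.69 at ZT0 (1.61-fold, standard error 0.13, edgeR adjusted p = 0.0656) and 0.45 at ZT12 (1.37-fold, standard error 0.12, edgeR adjusted p = 0.562). The unadjusted p was the 3rd smallest of 20256 genes at ZT0 (9.72e-06) and the 18th smallest at ZT12 (0.000791), by edgeR. In bulk libraries, more RNA per cell cannot be told apart from more cells that hold it.

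*Cry2*, whose loss in mice changes the period of daily activity in the opposite direction to that of *Cry1*, was between 16.2 and 20.5 CPM in control mice at ZT0, with a median of 17.3 CPM, and between 14.8 and 20.8 CPM at ZT12, with a median of 19.9 CPM. Knockout mice had 24.7, 30.5, 25.7 and 23.5 CPM at ZT0, and at ZT12 they had 22.3, 32.6, 23.7, 26.4 and 21.6 CPM. Here the genotypes did not overlap even when the times were pooled, since the 9 knockout mice started at 21.6 CPM and the 12 control mice ended at 20.8 CPM. At ZT0 the mean was 17.6 ± 1.57 CPM (SD, n = 6) in control and 26.1 ± 3.06 CPM (SD, n = 4) in knockout mice, and the fitted log2 fold change was 0.57 (1.48-fold, standard error 0.12, edgeR adjusted p = 0.254, not called). At ZT12 the means were 19.2 ± 2.28 CPM (SD, n = 6) and 25.3 ± 4.48 CPM (SD, n = 5), with a log2 fold change of 0.40 (1.32-fold, standard error 0.11, edgeR adjusted p = 0.562). By unadjusted p, *Cry2* stood 4th of all genes at ZT0 (5.02e-05) and 25th at ZT12 (0.00132). Knockout ZT12 replicate 2 had the highest *Cry1* and *Cry2* of all mice, and without it the log2 fold changes at ZT12 were 0.34 and 0.29.

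**Figure D3:**
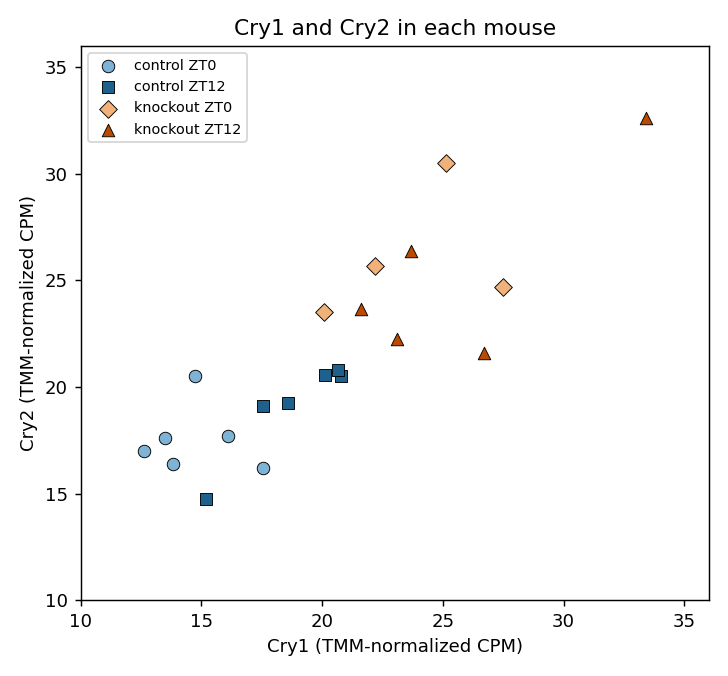
*Cry1* (horizontal) against *Cry2* (vertical) in TMM-normalized CPM, 1 point per mouse, on axes that start at 10 CPM. Knockout mice lie to the upper right, control mice at ZT0 to the lower left, and knockout ZT12 replicate 2 at the far upper right (33.4 and 32.6 CPM).

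Because both cryptochromes differed in the same direction at both times, the mean genotype difference over ZT0 and ZT12 was also computed, a contrast added after those values were seen. It is therefore a description of the same mice and no independent evidence. *Cry1* was 1.48-fold higher in knockout mice (log2 fold change 0.57, standard error 0.09, edgeR adjusted p = 0.00361) and *Cry2* 1.40-fold higher (0.48, standard error 0.08, edgeR adjusted p = 0.0121). These were 2 of the 7 genes called in that contrast (0.0346% of the genes tested), the others being *Nr1d2*, *Cd79a*, *Nr1d1*, *Kcnn4* and *Slc1a5*, all lower in knockout mice. The median of the 5 was 0.48, beside -0.01 over all genes. DESeq2 called the same pair of the 5 repressor genes, against 0.0687% of the genes it tested. At an unadjusted p under 0.05, which 4.19% of all genes reached, 4 of the 5 passed. *Cry2* was 1 of 4 genes (0.0197%) whose 9 knockout and 12 control mice did not overlap. Scaling by library size only left neither cryptochrome called, with log2 fold changes of 0.60 (edgeR adjusted p = 0.0613) for *Cry1* and 0.51 (edgeR adjusted p = 0.112) for *Cry2*. Without knockout ZT0 replicate 2, *Cry2* was no longer called (edgeR adjusted p = 0.0506).

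At each time on its own, edgeR called 0 of the 5 genes between genotypes. Their median log2 fold change was 0.57 at ZT0 and 0.12 at ZT12, beside -0.01 over all genes at each time. The share of all genes called was 0.00987% at ZT0 and 0.0148% at ZT12. At ZT0, 3 of the 5 (*Per2*, *Cry1* and *Cry2*) had an unadjusted p under 0.05, a level that 4.9% of all genes reached, and 3 did not overlap between genotypes, as did 0.977% of all genes. DESeq2 called 2 of the 5 at ZT0, *Cry1* (adjusted p = 0.00384) and *Cry2* (adjusted p = 0.0235), where it called 0.0247% of genes. At ZT12, 3 of the 5 (*Per3*, *Cry1* and *Cry2*) had an unadjusted p under 0.05 by edgeR against 8.83% of all genes, and 3 did not overlap against 0.38% of all genes. DESeq2 called 0 of the 5 there, against 0.0574% of genes. Leaving out control ZT0 replicate 2, control ZT12 replicate 2, knockout ZT0 replicate 4 or knockout ZT12 replicate 2 brought *Cry1* at ZT0 under the threshold in edgeR (adjusted p from 0.0207 to 0.0443). Over all 21 fits that each left out 1 library, its edgeR adjusted p reached up to 0.611. Its log2 fold change ranged from 0.61 without knockout ZT0 replicate 1 to 0.77 without knockout ZT0 replicate 4. With the immunoglobulin share as a covariate the ZT0 values were 0.76 for *Cry1* (edgeR adjusted p = 0.00919), 0.63 for *Cry2* (edgeR adjusted p = 0.0546) and 0.96 for *Per2*.

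*Per2*, the period gene most closely tied to the clock's rhythm, was separate between genotypes at ZT0 and overlapped at ZT12. In control mice it lay between 6.19 and 10.3 CPM at ZT0, with a median of 7.31 CPM. It lay between 5.17 and 24.3 CPM at ZT12, with a median of 13.1 CPM. Knockout mice had 12.7, 16.3, 14.3 and 10.4 CPM at ZT0, and at ZT12 they had 14.9, 14.7, 11.1, 13.3 and 18.0 CPM. All 4 knockout mice were above all control mice at ZT0 (10.4 CPM for the lowest knockout and 10.3 CPM for the highest control mouse), whereas at ZT12 control mice spanned the whole range of knockout mice. At ZT0 the means were 7.56 ± 1.40 CPM (SD, n = 6) in control and 13.5 ± 2.51 CPM (SD, n = 4) in knockout mice, and the fitted log2 fold change was 0.83 (1.78-fold, standard error 0.26, edgeR adjusted p = 0.926, unadjusted p = 0.00459). At ZT12 the means were 13.3 ± 6.34 CPM (SD, n = 6) in control and 14.4 ± 2.52 CPM (SD, n = 5) in knockout mice, and the fitted log2 fold change was 0.12 (standard error 0.24, edgeR adjusted p = 0.918). Without control ZT12 replicate 2 or with the immunoglobulin share as a covariate the ZT12 value turned negative (-0.051 and -0.011), and without control ZT12 replicate 5 it was 0.38.

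*Per3* was the only repressor gene that was lower in knockout mice at both times by the fitted value. In control mice it ranged from 13.6 to 20.5 CPM at ZT0 (median 18.1 CPM) and from 15.8 to 26.7 CPM at ZT12 (median 18.1 CPM). Knockout mice had 16.4, 9.06, 18.7 and 14.9 CPM at ZT0, and at ZT12 they had 13.9, 13.6, 9.08, 13.8 and 12.5 CPM. The genotypes overlapped at ZT0 and did not overlap at ZT12. The log2 fold change was -0.25 at ZT0 (standard error 0.17, edgeR adjusted p = 0.926). At ZT12 it was -0.62 (0.652-fold, standard error 0.16, edgeR adjusted p = 0.562, unadjusted p = 0.000673, the 15th smallest of all genes). Over both times it was -0.43 (standard error 0.12, edgeR adjusted p = 0.951). None of these was called, and the values without each mouse in turn stayed between -0.67 and -0.50 at ZT12. At ZT0 they ranged from -0.38 without knockout ZT0 replicate 3 to -0.066 without knockout ZT0 replicate 2.

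*Per1*, an early responder to outside signals, showed no difference between genotypes beyond the spread of the mice. In control mice it ranged from 129 to 224 CPM at ZT0 (median 172 CPM) and from 152 to 205 CPM at ZT12 (median 184 CPM). Knockout mice had 176, 230.0, 206 and 160.0 CPM at ZT0, and at ZT12 they had 148, 205, 173, 164 and 136 CPM. The groups overlapped in every comparison. The log2 fold changes were 0.17 at ZT0 (standard error 0.15, edgeR adjusted p = 0.931) and -0.14 at ZT12 (standard error 0.14, edgeR adjusted p = 0.776).

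**Figure D4:**
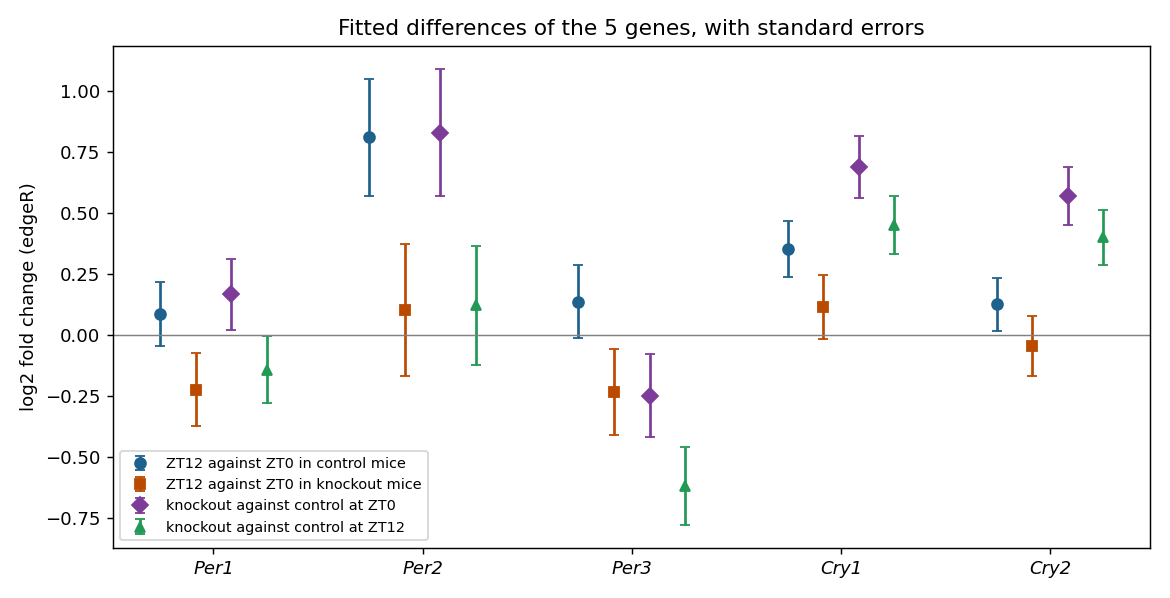
Fitted log2 fold changes of the 5 genes in 4 comparisons, with bars of 1 standard error from edgeR. The genotype differences of *Cry1* and *Cry2* lie above 0 at both times, that of *Per2* at ZT0 is similar in size to its time of day difference in control mice, and that of *Per3* is lowest at ZT12.

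The largest time of day differences among the 5 genes in control mice were those of *Per2* and *Cry1*, and edgeR called neither. These comparisons share the 6 control mice at ZT0 with the genotype comparison at that time. *Per2* had a mean of 7.56 CPM at ZT0 and 13.3 CPM at ZT12, a log2 fold change of 0.81 (1.75-fold, standard error 0.24, edgeR adjusted p = 0.0877). The groups overlapped through control ZT12 replicate 2, which at 5.17 CPM was below all 6 mice at ZT0, and control ZT12 replicate 4 (9.85 CPM). *Cry1* had a log2 fold change of 0.35 (1.28-fold, standard error 0.11, edgeR adjusted p = 0.111) from 14.7 to 18.8 CPM. Of the 5 genes, edgeR called 0, where it called 1.73% of all genes, and 2 had an unadjusted p under 0.05, where 18.1% of all genes did. Their median was 0.14, beside 0.01 over all genes. DESeq2 called 2, *Per2* (adjusted p = 0.0121) and *Cry1* (adjusted p = 0.0395), where it called 8.5% of genes. None of the 5 was free of overlap between ZT0 and ZT12, as 1.6% of all genes were. *Per1* (0.09, standard error 0.13), *Per3* (0.14, standard error 0.15) and *Cry2* (0.13, standard error 0.11) had small positive values that turned negative when libraries were scaled by size only, a scaling that moved the median of all genes to -0.20 in this comparison, to 0.19 in the interaction and to 0.12 between genotypes at ZT12. On that scale *Cry1* had 0.15 and *Per2* 0.63.

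The *Per2* value in control mice rested in part on a few libraries. Without control ZT12 replicate 2, which had the largest immunoglobulin share (63.6%) and the lowest TMM factor (0.722) of all libraries, *Per2* was called (log2 fold change 0.98, edgeR adjusted p = 0.0189). Without control ZT12 replicate 5 it was 0.55. That mouse had the highest *Per2* (24.3 CPM) and also the highest epithelial marker sum (666 CPM), and among knockout mice the highest *Per2* (18.0 CPM) likewise fell in the library with the highest epithelial sum (395 CPM). In a fit that held the epithelial marker level as a covariate, the difference was 0.38 (standard error 0.22, edgeR adjusted p = 0.416), and without those 2 libraries, a choice made after the values were seen, it was 0.55 (standard error 0.19, edgeR adjusted p = 0.153). The genotype difference of *Per2* at ZT0 was 0.76 with that covariate and 0.83 without those 2 libraries. How far epithelial RNA entered the *Per2* level was not tested. For *Cry1* in control mice the covariate gave 0.25 and the fit without those libraries 0.36. The immunoglobulin share and the stromal and endothelial marker sum also moved between ZT0 and ZT12 in control mice. With the immunoglobulin share as a covariate *Per2* had 1.03 (edgeR adjusted p = 0.381) and *Cry1* 0.49 (edgeR adjusted p = 0.303), and the part of the stromal and endothelial markers was not tested.

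**Figure D5:**
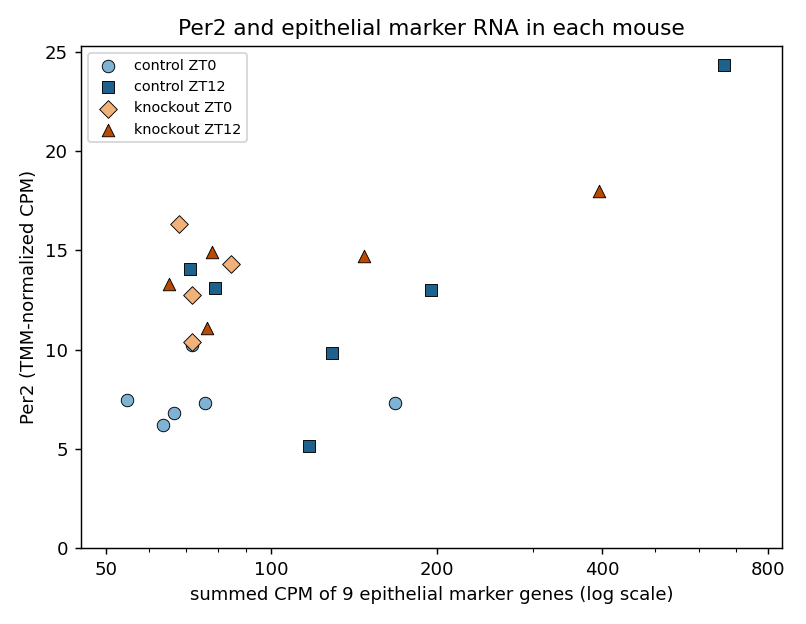
*Per2* (vertical, TMM-normalized CPM) against the summed CPM of 9 epithelial marker genes (horizontal, log scale), 1 point per mouse. In 19 libraries the marker sum stays at or under 196 CPM and *Per2* between 5.17 and 16.3 CPM, and the 2 libraries to the right have the highest *Per2*.

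In knockout mice no repressor gene differed between ZT0 and ZT12 beyond the spread of the mice. The log2 fold changes were 0.10 for *Per2* (standard error 0.27), 0.12 for *Cry1* (standard error 0.13), -0.04 for *Cry2* (standard error 0.12), -0.22 for *Per1* (standard error 0.15) and -0.23 for *Per3* (standard error 0.18). The sign of *Per2* turned without knockout ZT0 replicate 4 or knockout ZT12 replicate 5, and that of *Cry2* without knockout ZT0 replicate 2. EdgeR called 0 of the 5 against 0.0% of all genes, and 0 of the 5 had an unadjusted p under 0.05 against 8.01% of all genes. DESeq2 called 0 of the 5 against 0.319% of genes, and 0 of the 5 were free of overlap against 2.63% of all genes. Their median was -0.04, beside 0.01 over all genes. The interaction, which sets the change with time in knockout mice against that in control mice, was negative for all 5 genes, from -0.71 for *Per2* (standard error 0.36, edgeR unadjusted p = 0.0627) to -0.17 for *Cry2* (standard error 0.16). *Per1* had -0.31 (standard error 0.20), *Per3* -0.37 (standard error 0.23) and *Cry1* -0.24 (standard error 0.17), and the median of the 5 was -0.31, beside 0.01 over all genes. All 5 stayed negative with each library left out, and single libraries moved their size: *Per2* was -0.45 without control ZT12 replicate 5, *Per3* -0.56 without knockout ZT0 replicate 2 and -0.24 without knockout ZT0 replicate 3, and *Cry2* -0.28 without knockout ZT12 replicate 2 and -0.10 without knockout ZT0 replicate 2. EdgeR called 0 of the 5 against 0.0% of all genes, with 0 at an unadjusted p under 0.05 against 10.8% of all genes, and DESeq2 called 0 against 0.0279% of genes. A difference between the genotypes in the time of day change of *Per2* or *Cry1* was thus not established by these tests.

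Ratios within a library do not depend on its scaling, and 3 were compared in 4 contrasts by two-sided exact permutation tests, adjusted over the 12 tests. *Per2* relative to *Arntl*, which in a running clock peaks at the opposite phase, was 0.96 in control mice at ZT0 and 2.64 at ZT12 (geometric means of count ratios), a log2 difference of 1.46 (exact permutation p = 0.00433, adjusted p = 0.0191). In knockout mice the ratio was 2.76 at ZT0 and 3.69 at ZT12, a log2 difference of 0.42 (exact permutation test, adjusted p = 0.313). At ZT0 it was higher in knockout than in control mice by 1.52 on the log2 scale (exact permutation p = 0.00476, the smallest that 4 against 6 mice allow, adjusted p = 0.0191), and at ZT12 by 0.48 (exact permutation test, adjusted p = 0.343). The denominator of this ratio, *Arntl*, is the floxed gene, and its own log2 fold change between genotypes at ZT0 was -0.68 (standard error 0.17, edgeR adjusted p = 0.926). Over time in control mice *Arntl* had -0.78 (edgeR adjusted p = 0.0149) and *Per2* 0.81 (edgeR adjusted p = 0.0877, not called). The ratio over time thus holds the changes of both genes and does not show that *Per2* alone changed. *Per1* relative to *Per2* was 22.5 in control and 14.4 in knockout mice at ZT0 (log2 difference -0.65, exact permutation test, adjusted p = 0.0191), and every knockout mouse was below every control mouse. In control mice it was 15.1 at ZT12 (log2 difference from ZT0 -0.58, exact permutation test, adjusted p = 0.192). Without knockout ZT0 replicate 1 the adjusted p values of the 3 called ratios were 0.0519, 0.0714 and 0.0952 (exact permutation tests, in the order given). The first of these tests does not include that mouse, and its difference stayed at 1.46. Only the adjustment over the 12 tests moved it. For the others, the smaller knockout group also raised the smallest p that the test allows. Without control ZT0 replicate 5 or 6, the adjusted p of *Per1* to *Per2* between genotypes at ZT0 was 0.0635 (exact permutation test). *Cry1* relative to *Cry2* was 0.84 in control mice at ZT0 and 0.98 at ZT12 (exact permutation p = 0.0411, adjusted p = 0.123) and 0.91 and 1.01 in knockout mice, and no contrast of it was called. Without control ZT0 replicate 2 its difference over time in control mice was called (0.31, exact permutation test, adjusted p = 0.026), and so was that of *Per1* to *Per2* without control ZT12 replicate 2 (-0.77, exact permutation test, adjusted p = 0.026).

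Between mice of the same group, *Per1* and *Cry2* were the only pair of repressors called as associated with TMM scaling. Over the 21 mice, with each group's mean removed, *Per1* and *Cry2* had Pearson's r = 0.64 (permutation p = 0.0016, adjusted p = 0.016 over 10 pairs) and Spearman's rho = 0.62 (permutation test, adjusted p = 0.0417), and r was 0.79 without the 2 mice farthest from the median of *Per1*. *Cry1* and *Cry2* had r = 0.58 (permutation test, adjusted p = 0.0936) and rho = 0.51 (permutation test, adjusted p = 0.168), and r fell to 0.12 without the 2 mice farthest from the median of *Cry1*, so the relation rests on those mice. *Per2* and *Cry2* had r = 0.49 (permutation test, adjusted p = 0.164) and rho = 0.41 (permutation test, adjusted p = 0.284). The other 7 pairs had r between -0.27 and 0.34, and the points share library scaling. By Pearson's r over all 21 mice, groups included, each cryptochrome was the gene most like the other among 11634 genes with a mean of at least 1 CPM (r = 0.845, rho = 0.870). *Per2* stood 5th in the list of *Cry1* and 6th in that of *Cry2*. After *Cry2*, the genes most like *Cry1* were *Selenop* (r = 0.694) and *Phf10* (r = 0.692), and after *Cry1* those most like *Cry2* were *Tbccd1* (r = 0.720) and *E130307A14Rik* (r = 0.698). The genes most like *Per1* were *Fam114a1* (r = 0.812), *Zfp446* (r = 0.784) and *Mvd* (r = 0.778), those most like *Per2* were *Slc5a1* (r = 0.767), *Dgat2* (r = 0.747) and *Ckmt1* (r = 0.731), and those most like *Per3* were *Hexim1* (r = 0.749), *Uxs1* (r = 0.748) and *Gm44698* (r = 0.740). These likenesses are descriptions over libraries that share group, scaling and composition.

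The genes that act on the repressors or with them were described by lists. Of the activators *Arntl*, *Arntl2*, *Clock* and *Npas2*, 1 of 4 was called lower at ZT12 in control mice, *Arntl* (log2 fold change -0.78, standard error 0.15, edgeR adjusted p = 0.0149), and 0 in the other comparisons. Over time in control mice, edgeR called 1.73% of all genes. Of the REV-ERB and ROR receptors, 4 of 5 were tested. Between genotypes, edgeR called 0.00987% of all genes at ZT0 and 0.0148% at ZT12. Among these receptors 1 was called lower in knockout mice at each time. This was *Nr1d2*, at 52.1 to 73.5 CPM in control mice at ZT12 and 8.69 to 13.5 CPM in knockout mice at ZT12. Its log2 fold change was -2.24 at ZT0 (standard error 0.14, edgeR adjusted p = 8.82e-11) and -2.55 at ZT12 (standard error 0.13, edgeR adjusted p = 6.06e-13), opposite in sign to those of *Cry1* and *Cry2*. *Nr1d1* had -2.24 and -2.07, without a call at either time. Of the 7 clock output and D-box factors, 1 was called higher at ZT12 in control mice, where 1.73% of all genes were called. It was *Tef* (0.71, standard error 0.09, edgeR adjusted p = 0.000437), a factor of the D-box found before *Per1* and *Per3*. In the interaction *Tef* had -0.76 (standard error 0.14, edgeR adjusted p = 0.138), beside -0.71 for *Per2* (standard error 0.36). Between genotypes *Tef* had 0.44 at ZT0 (edgeR adjusted p = 0.44) and -0.32 at ZT12 (edgeR adjusted p = 0.562), without a call at either time.

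Of 20 kinases, ligases and partners of PER and CRY proteins, 0 were called in any comparison by edgeR, and the medians of the list lay between -0.04 and 0.04. In control mice 2 were higher and 3 lower at ZT12 at an unadjusted p under 0.05, among them *Csnk2b* (0.40, standard error 0.12), a subunit of casein kinase 2, where 18.1% of all genes reached that level in either direction. In the genotype comparisons 1 was higher and 0 lower at ZT0, where 4.9% of all genes reached it, and 2 were higher and 0 lower at ZT12, where 8.83% did. Of 11 genes of the glucocorticoid response, 1 was called in control mice, where 1.73% of all genes were. This was *Fkbp5* (0.83, standard error 0.20, edgeR adjusted p = 0.0414), which had 1.04 in knockout mice (standard error 0.24, edgeR adjusted p = 0.263). At an unadjusted p under 0.05, 4 were higher and 2 lower at ZT12 in control mice (18.1% of all genes in either direction). Among the lower was *Nr3c1* (-0.45, standard error 0.17). In knockout mice 2 were higher and 1 lower (8.01% of all genes). *Per1*, itself a target of the glucocorticoid receptor, had 0.09 and -0.22 in the same comparisons. Of 11 CREB and immediate early genes, 0 were called in any comparison. At an unadjusted p under 0.05, 4 were higher at ZT12 in control mice (18.1% of all genes in either direction) and 5 were lower at ZT12 in knockout mice (8.01% of all genes). Between genotypes 8 were lower in knockout mice at ZT12 (8.83% of all genes), where the list's median was -0.75 beside -0.01 over all genes, and 0 reached this level at ZT0, where the median was 0.47. In the interaction 7 were lower (10.8% of all genes), with a median of -1.22 beside 0.01 over all genes. *Fos* (-2.53, standard error 0.75) and *Junb* (-1.22, standard error 0.38) had the smallest p of that list in the interaction (edgeR adjusted p = 0.442 for each).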

How the data were processed

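RNA-seq was analysed for 21 libraries of sort-purified IgA+ PCs, 1 per mouse. Per the labels, poly-A RNA was read as paired ends of 150 bases. The table that the authors deposited holds unnormalized read counts for 53801 genes. The aligner, counter, strand setting and genome build are not given in the sources used here, and the submitters' processing notes name DESeq and DESeq2 without versions. Coordinates are taken as GRCm38, since 52056 of 53620 genes matched to GENCODE M21 have the same position. Groups were taken from sample titles. Of the columns of values, 0 were left unused.

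As in the study's methods, genes under 10 counts in total were dropped, which left 20256. EdgeR 4.0.16 in R 4.3.3 gave TMM factors and a robust quasi-likelihood fit to the 4 group means, with contrasts for time in each genotype, the interaction and genotype at each time. The mean genotype difference over both times, and the fit without the 2 libraries of highest epithelial marker level, were added after values were seen. Standard errors come from the same test. The study's methods use DESeq2 with a threshold of 0.01, and DESeq2 1.42.0 and that threshold were alternatives here. The p-values of edgeR and DESeq2 set a difference of group means against the spread between these mice, counting error included. All 46 pairs of libraries within groups differed by more than sampling noise (chi-square per gene of at least 29.5). Ratios used counts with 0.5 added, tested by exact permutation with scipy 1.17.1. Associations used 100000 permutations within groups. Tests were tried on simulated data first.

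The genes named were drawn from the 5 repressors, genes of a pathway list that were called or had the 2 smallest p of their list in a comparison, *Arntl*, *Cd79a*, and the 3 genes most like each repressor. Other list genes that meet the rule on p are not reported here. *Kcnn4* and *Slc1a5* were named after their values were seen. The genes, lists and motifs were chosen with earlier results of these data known. Alternatives were other scalings (DESeq2 size factors, library size only, immunoglobulin genes removed), other filters (none, filterByExpr), only the groups compared, the replicate number as a block, covariates (immunoglobulin share, epithelial markers, *Xist*), a pseudocount of 1 for ratios, and each library left out in turn.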

Additional observations from a re-analysis of the deposited data

Results flagged for a closer look

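In 4 of the 20 sets of mice (5 genes in 4 groups), 1 mouse lay apart from the others of its group by Dixon's test at the 95% level, which chance gives in about 1 of 20 sets. *Per2* in control ZT0 replicate 5 was 10.26 CPM, with the next mouse at 7.47 CPM. *Cry2* in the same mouse was 20.52 CPM, with the next at 17.71 CPM, so this mouse was the highest of its group for both genes. *Per3* in control ZT12 replicate 4 was 26.67 CPM, with the next at 19.55 CPM. *Cry2* in control ZT12 replicate 2 was 14.77 CPM, with the next mouse at 19.13 CPM. That library also had the lowest *Per1*, *Per2* and *Cry1* of its group, the highest immunoglobulin share (63.57%) and the lowest TMM factor (0.7222), and the part of these in its low values was not tested.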

How the results depend on the processing

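Of the settings other than leaving out a library, 86 of 98 values that answer a comparison and 332 of 350 values of single genes stayed the same. For single genes, ratios and associations this means that direction and side of the threshold were kept. For counts of genes called it means that the count did not move. The count of repressor genes called between ZT0 and ZT12 in control mice moved from 0 to 2 with DESeq2 and was 0 to 1 with each library left out. Between genotypes at ZT0 it moved from 0 to 2 with DESeq2 and to 1 with no count filter, only the groups compared, the immunoglobulin share or the epithelial marker level as a covariate, and was 0 to 1 with each library left out. For the mean of both times it moved from 2 to 0 with library size only and to 1 with the replicate block or a threshold of 0.01, and was 1 to 2 with each library left out. The cause of these moves was not tested. Same-numbered libraries were not alike throughout, since 15 of 28 such pairs correlated at 0.1 or less (from -0.394 to 0.538). All pairs of replicate 1 were positive, from 0.286 to 0.516, and whether some numbers share a cohort was not tested. With the number as a block, 0 of the 5 genes were called in each of the 5 comparisons other than the mean of both times. *Cry2* over both times was then not called (0.48, edgeR adjusted p = 0.149), and *Per2* over time in knockout mice turned to -0.056.

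With library size only, the time of day differences in control mice turned for *Per1* (-0.11), *Per3* (-0.078) and *Cry2* (-0.068). With the epithelial covariate *Per2* in knockout mice turned to -0.14, and without the 2 libraries of highest epithelial level *Cry2* in knockout mice turned to 0.0092. With the immunoglobulin share as a covariate *Per2* between genotypes at ZT12 turned to -0.011. With each library left out, *Per2* in knockout mice ranged from -0.017 to 0.19, *Cry2* in knockout mice from -0.15 to 0.025, *Per2* between genotypes at ZT12 from -0.051 to 0.38 and *Per1* over both times from -0.033 to 0.057. Among ratios with each library left out, *Per2* to *Arntl* ranged from 1.22 to 1.71 over time in control mice and from 1.35 to 1.63 between genotypes at ZT0. *Per1* to *Per2* ranged from -0.77 to -0.36 and from -0.71 to -0.56 in the same comparisons, *Cry1* to *Cry2* from 0.19 to 0.31 over time in control mice and from -0.024 to 0.092 between genotypes at ZT12. With library size only, the association of *Per2* with *Per3* turned to 0.038, that of *Per3* with *Cry2* to 0.18, and that of *Cry1* with *Cry2* was called at 0.78 (permutation test, adjusted p = 0.00965). The fit of only the groups compared gave no value for the interaction or the mean of both times.

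The lowest counts, 85 for *Per2*, 135 for *Per3*, 206 for *Cry1* and 243 for *Cry2*, carry a larger relative counting error than the 2041 of *Per1*. The fitted standard errors, which include the spread between mice, do not follow that order. Between genotypes at ZT0 they were 0.15 for *Per1*, 0.26 for *Per2*, 0.17 for *Per3*, 0.13 for *Cry1* and 0.12 for *Cry2*.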
